A study of Mus musculus with 8 samples.

Results

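The Bcl2 family decides whether a cell keeps its mitochondria intact or dies by apoptosis, and 10 of its genes were followed while mouse oligodendrocyte precursor cells (OPCs) matured in culture. They were the prosurvival genes *Bcl2*, *Bcl2l1* (Bcl-xL) and *Mcl1*, the effectors *Bax* and *Bak1*, and the BH3-only genes *Bad*, *Bid*, *Bbc3* (Puma), *Bcl2l11* (Bim) and *Pmaip1* (Noxa). They were picked by symbol from a table of 23427 gene entries, which gives the mRNA level in FPKM, the number of fragments per kilobase of a transcript and per unit of library depth. The cells were wild-type C57BL/6J OPCs, isolated at postnatal day 7 from the pooled cortices of 3 pups. In immunopanning, the method of isolation, microglia and endothelial cells were first removed on lectin-coated dishes and OPCs were then caught by an antibody to their receptor PDGFRα. OPCs were grown with PDGF-AA and CNTF, and Day 0, Day 1, Day 2 and Day 3 count from the change to a medium without PDGF-AA and with T3, a thyroid hormone. Each day had 2 libraries, described as independent replicates, and no transgene or knockout was involved in any of the 8.

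In apoptosis, Bax and Bak1 open the outer mitochondrial membrane, cytochrome c leaks out, and caspases are activated. Bcl2, Bcl-xL and Mcl1 hold Bax and Bak1 back. BH3-only proteins sense stress or loss of growth factors and either block the prosurvival proteins or activate Bax and Bak1 directly. Newly formed oligodendrocytes (OLs) are known to depend on survival signals, and many of them die before they myelinate. Much of the control over these proteins lies in phosphorylation, cleavage and protein turnover, which mRNA does not show.

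The maturation of the culture was seen in its marker genes. Summed over 4 genes, the mature OL markers (*Mbp*, *Mag*, *Mog* and *Mobp*) were at 74.7 to 97.3 FPKM in the Day 0 libraries and at 10400 to 15100 FPKM in the Day 3 libraries, and all 4 rose from Day 0 to Day 3. The OPC markers (*Pdgfra*, *Cspg4*, *Olig1*, *Olig2* and *Sox10*) summed to 2010 to 2030 FPKM on Day 0 and to 918 to 1060 FPKM on Day 3, with 4 of 5 lower. Astrocyte markers (6 genes) summed to 50.2 to 78.6 FPKM in the replicate 1 libraries and to 260, 396, 539 and 831 FPKM in the replicate 2 libraries of Day 0 to Day 3. In replicate 1, *Gja1* was listed at 0 on Day 0 and Day 2, and *Aldh1l1* at 0 on Day 1. Neuronal markers (5 genes) summed to 64.4 to 233 FPKM in replicate 1 and 31.4 to 115 FPKM in replicate 2, highest on Day 3 in both. On Day 3 nearly all of this sum was *Tubb3* (230.9 and 112.7 FPKM), while in Day 0 replicate 2 *Tubb3* was 20.81 of the 31.4 FPKM. *Snap25* was at 2.154 and 8.461 FPKM on Day 0 and at 0 and 1.478 FPKM on Day 3 (log2 -1.79, adjusted p = 0.0618, limma). *Syt1* was at -0.50 on the log2 scale, and *Rbfox3* and *Stmn2* stayed under 1 FPKM. The part of either cell type in the results between days was not tested. The microglial markers *Aif1*, *Cx3cr1*, *Csf1r* and *Tmem119* and the endothelial markers *Cldn5*, *Cdh5* and *Tek* were listed at 0 in all 8 libraries. Another microglial marker, *P2ry12*, was at 2.509 FPKM in Day 0 replicate 1, 1.961 in Day 3 replicate 1 and under 1 FPKM elsewhere. The endothelial markers *Pecam1* and *Flt1* reached 0.2823 and 0.146 FPKM at most. Low FPKM values rise in steps of single fragments, and these steps put the depth at 950000 to 1510000 fragments per library, so that a gene near 1 FPKM rested on a few fragments. In bulk RNA of this kind, fewer cells of a type and less RNA per cell cannot be told apart.

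All 10 members were tested, since each had at least 1 FPKM in at least 2 libraries, but they spanned a wide range of levels. By the mean FPKM over the 8 libraries the order was *Bax* (87.6), *Mcl1* (43.3), *Bak1* (29.3), *Bcl2l1* (16.9), *Bad* (11.6), *Bbc3* (4.70), *Bcl2l11* (2.45), *Bid* (2.05), *Pmaip1* (1.69) and *Bcl2* (1.42). *Bax* was above 93.6% of the 12208 genes tested and had the highest level of the 10 in 8 of 8 libraries. *Bcl2*, the founding member of the family, was above only 9.57% of the genes tested. *Bak1* (21.4 to 40.1 FPKM) did not overlap *Bcl2l1* below it (14.5 to 20.3 FPKM). Every other pair of neighbours in this order overlapped in their ranges over the libraries.

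The members lie apart in the genome (GRCm38 coordinates of GENCODE M21). *Bcl2* is at chr1:106538178-106714274, *Bcl2l1* at chr2:152780668-152831728, *Mcl1* at chr3:95658788-95663176, *Bax* at chr7:45461697-45466898 and *Bak1* at chr17:27019810-27029009. *Bad* is at chr19:6941861-6951899, *Bid* at chr6:120891930-120916853, *Bbc3* at chr7:16308393-16318205, *Bcl2l11* at chr2:128126038-128162547 and *Pmaip1* on chromosome 18. The libraries were stranded, but whether strand was used in counting is not given in the sources used here, so overlapping genes are uncertain. All 9200 bp of *Bak1* lie inside *Ggnbp1* on the other strand, which was at 0.534 to 2.25 FPKM. *Bad* shares 620 bp with *Gpr137* (15.7 to 30.4 FPKM), and *Bid* shares 913 bp with *Bcl2l13* (12.9 to 24.2 FPKM), both on the other strand. *Bax* overlaps *Gm45808* on the same strand over 915 bp, and *Bcl2* overlaps *D630008O14Rik* on the other strand over 33103 bp. Neither of these has an entry in the table.

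**Figure D1:**
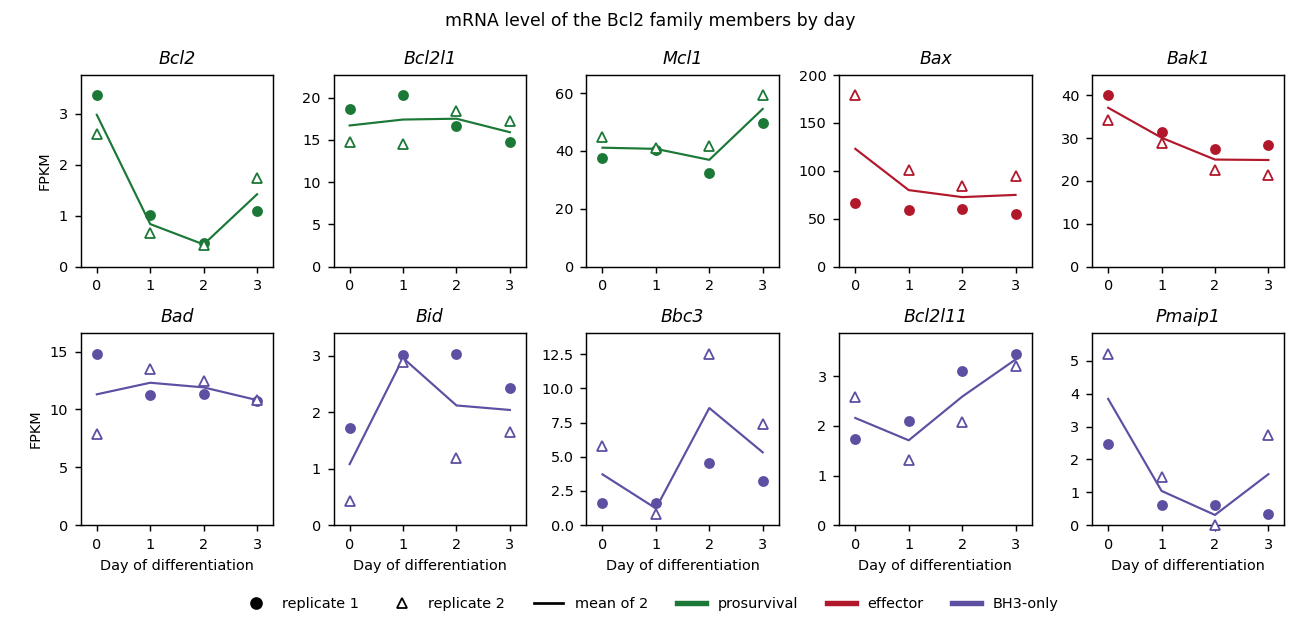
FPKM of each member (vertical axes, each from 0 with its own scale) by day of differentiation (horizontal axes). Filled circles are replicate 1, open triangles replicate 2 and lines the means of the 2 libraries. *Bcl2* is lowest on Day 2 at 0.436 FPKM, and the *Bax* triangles lie above the circles on all 4 days.

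Some promoters of the members carry short sequence words of transcription factors whose genes are described further on. Whether a match goes with the level of a member was not tested. RefSeq promoter windows (GRCm38.p6, 250 bases before to 50 after each start site) were found for 9 of the 10 members and searched on both strands for a p53 half-site, for CACGTG, a word read by Myc and Tfeb among others, and for GTAAACA, a word read by FoxO factors. A match to the p53 half-site was in 8.36% of all 32851 promoters, CACGTG in 7.15% and GTAAACA in 3.65%. These shares count windows, of which the 9 members had 15 in all, so a gene with several had more chances to match. *Bax* was the 1 member of 9 with a p53 half-site match, *Bax* and *Bbc3* held CACGTG, and *Bbc3* and *Bcl2l11* held GTAAACA. *Pmaip1* had no window and was not searched. None of these matches overlapped another. The windows around them are printed 5′ to 3′ on the strand of the gene with the match in capitals, beside that of *Cdkn1a*, a p53 target whose level is compared with that of *Bax* further on. A match describes the letters and is not evidence that a factor was bound, and 1 window is shown per gene and word.
Bax, p53 half-site at -201, chr7:45467080-45467109 (minus strand): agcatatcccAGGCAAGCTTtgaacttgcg
Cdkn1a, p53 half-site at -51, chr17:29090918-29090947 (plus strand): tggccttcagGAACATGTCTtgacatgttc
Bax, CACGTG at -9, chr7:45466890-45466919 (minus strand): agcgatgatgatCACGTGactagtcctgcg
Bbc3, CACGTG at -64, chr7:16310355-16310384 (plus strand): gcggggcgggcgCACGTGgcggcgtcgagg
Bbc3, GTAAACA on the opposite strand at -167, chr7:16310083-16310111 (plus strand): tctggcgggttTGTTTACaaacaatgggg
Bcl2l11, GTAAACA at -227, chr2:128125800-128125828 (plus strand): aagacactaggGTAAACAcgccggggtgg

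Of the prosurvival genes, *Bcl2* had the lowest level and the largest log2 differences from Day 0. It was at 3.367 and 2.601 FPKM in the Day 0 libraries, 1.018 and 0.6511 at Day 1, 0.4557 and 0.4169 at Day 2, and 1.093 and 1.738 at Day 3. The means were 2.98 ± 0.541, 0.835 ± 0.260, 0.436 ± 0.0274 and 1.42 ± 0.456 FPKM (SD, n = 2 on each day, as throughout). Each day thus lay below the one before until Day 2, and Day 3 lay above Day 2 but still below Day 0, with no overlap between the libraries at any of these steps. From Day 0 to Day 2 *Bcl2* fell by 1.47 on the log2(FPKM + 1) scale (SE 0.33, adjusted p = 0.0120, limma), a comparison added after the values were seen. Day 1 over Day 0 was -1.12 (SE 0.33, adjusted p = 0.0634, limma), the step from Day 2 to Day 3 was 0.74 (adjusted p = 0.358), and Day 3 against Day 0 was -0.73 (adjusted p = 0.117), none of which passed the threshold. At the length of the longest annotated transcript, the Day 2 values rest on about 4 fragments in each library. The Day 2 call was lost without Day 0 replicate 1 (adjusted p = 0.0727, limma) and without Day 2 replicate 2 (adjusted p = 0.0605), and also after quantile normalization (-0.98, adjusted p = 0.0650).

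*Bcl2l1*, which encodes Bcl-xL, held a level near 17 FPKM over the 4 days. Its libraries were at 18.70 and 14.78 FPKM at Day 0, 20.29 and 14.51 at Day 1, 16.62 and 18.37 at Day 2, and 14.69 and 17.17 at Day 3, and each pair of days compared overlapped. The Day 3 over Day 0 difference was -0.06 on the log2 scale with a 95% interval of -0.56 to 0.44 (adjusted p = 0.841, limma). The interval leaves room for a change in either direction.

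*Mcl1*, whose protein is short-lived and must be replaced from its mRNA, was the most abundant prosurvival mRNA. It was at 37.58 and 44.64 FPKM at Day 0, 40.45 and 41.04 at Day 1, 32.26 and 41.57 at Day 2, and 49.69 and 59.27 at Day 3. The Day 3 libraries were above all the others, at a mean of 54.5 ± 6.77 FPKM against 41.1 ± 4.99 on Day 0. The log2 difference between Day 3 and Day 0 was 0.40 (SE 0.17, 95% interval -0.00 to 0.80, adjusted p = 0.105, limma), and it did not pass the threshold. Relative to the median of all genes, which was -0.31 between these days, it was 0.71. *Mcl1* passed the threshold when each library was rescaled to the same sum (0.55, adjusted p = 0.0383, limma) or by median ratios (0.71, adjusted p = 0.0235), and not after quantile normalization (0.48, adjusted p = 0.0658). Day 3 over Day 2 was 0.55 (adjusted p = 0.191, limma).

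*Bax* had the highest level of the effectors and the widest spread between replicates in FPKM. It was at 66.76 and 179.1 FPKM at Day 0, 59.11 and 100.8 at Day 1, 60.46 and 84.7 at Day 2, and 54.86 and 94.89 at Day 3. Replicate 2 was the higher library on all 4 days, and the days overlapped in every comparison. The Day 3 over Day 0 difference was -0.59 (SE 0.47, 95% interval -1.67 to 0.48, adjusted p = 0.345, limma). With the replicate number as a block, which compares libraries of the same number, the SE was 0.21 and the adjusted p 0.0474. Without Day 0 replicate 2 the difference was 0.11.

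*Bak1* stood at 40.05 and 34.19 FPKM at Day 0, 31.36 and 28.90 at Day 1, 27.48 and 22.51 at Day 2, and 28.39 and 21.38 at Day 3. Both libraries of Day 1 were below both of Day 0, and both of Day 2 below both of Day 1, while Day 2 and Day 3 overlapped. *Bak1* fell from Day 0 to Day 3 by 0.57 on the log2 scale (SE 0.19, adjusted p = 0.0450, limma), from a mean of 37.1 ± 4.14 to 24.9 ± 4.96 FPKM. Day 2 over Day 0 was -0.55 (SE 0.19, adjusted p = 0.0572, limma), and with the replicate block its adjusted p was 0.0236. The Day 3 call held in 4 of the 17 alternatives tried. Of the 8 fits that each left out 1 library, only that without Day 3 replicate 1 kept it, and the others gave an adjusted p from 0.0516 to 0.221 (limma). It was lost under each scaling between libraries, where the difference was -0.42 (same sum), -0.42 (quantile) and -0.26 (median ratio), and relative to the median of all genes it was -0.25.

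Among the BH3-only genes, *Bad*, whose protein is kept inactive by phosphorylation under growth factor signals, stayed between 7.858 and 14.82 FPKM. It was at 14.82 and 7.858 FPKM at Day 0, 11.23 and 13.46 at Day 1, 11.31 and 12.41 at Day 2, and 10.73 and 10.78 at Day 3. The lowest and the highest value were thus both from Day 0. Day 3 over Day 0 was -0.01 on the log2 scale (95% interval -0.66 to 0.64, adjusted p = 0.983, limma).

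*Bid*, which links death receptors to mitochondria once it is cleaved, was near its limit of detection. Its values lie close to whole multiples of a single fragment and stand for 5 and 1 fragments at Day 0, 7 and 7 at Day 1, 7 and 3 at Day 2, and 5 and 3 at Day 3. In FPKM these were 1.724 and 0.431, 3.018 and 2.895, 3.039 and 1.192, and 2.424 and 1.656. Both Day 1 libraries were above both Day 0 libraries. Summed over the replicates and divided by depth, Day 1 was 2.57 times Day 0, with an exact 95% interval of 0.928 to 8.16 that covers counting error only. The log2 difference was 1.00 (SE 0.44, adjusted p = 0.186, limma).

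*Bbc3* encodes Puma, a BH3-only protein induced by p53 and by FoxO factors. It was at 1.649 and 5.774 FPKM at Day 0, 1.650 and 0.7915 at Day 1, 4.570 and 12.54 at Day 2, and 3.248 and 7.395 at Day 3. Both Day 2 libraries were above both Day 1 libraries, with means of 8.56 ± 5.64 and 1.22 ± 0.607 FPKM. Day 2 over Day 1 was 1.99 on the log2 scale (SE 0.60, adjusted p = 0.105, limma). With the replicate block it passed, at an adjusted p of 0.0429 (SE 0.47). Without Day 2 replicate 2, the library with the highest value, the step was 1.35 (adjusted p = 0.448, limma).

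*Bcl2l11* encodes Bim, the BH3-only protein most tied to the withdrawal of growth factors in many cells. Its libraries were at 1.740 and 2.589 FPKM at Day 0, 2.104 and 1.309 at Day 1, 3.098 and 2.087 at Day 2, and 3.459 and 3.216 at Day 3. Day 3 was above every other library, with a mean of 3.34 ± 0.172 against 2.16 ± 0.600 FPKM on Day 0. The log2 difference between these days was 0.47 (SE 0.33, 95% interval -0.29 to 1.22, adjusted p = 0.293, limma) and passed the threshold only after quantile normalization, of the 16 alternatives that tested it (0.93, adjusted p = 0.0461).

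*Pmaip1* encodes Noxa, which binds Mcl1 and is another p53 target. It was at 2.456 and 5.220 FPKM at Day 0, 0.6144 and 1.473 at Day 1, 0.6187 and 0 at Day 2, and 0.3454 and 2.753 at Day 3. The fragments behind them numbered about 10 and 17 at Day 0, 2 and 5 at Day 1, 2 and 0 at Day 2, and 1 and 7 at Day 3. *Pmaip1* was lower on Day 2 than on Day 0, by -1.87 on the log2 scale (SE 0.56, adjusted p = 0.0373, limma, in the comparison added after the values were seen). Per fragment sequenced, Day 0 with 27 fragments was 12.5 times Day 2 with 2 fragments (exact 95% interval 3.14 to 109, counting error only). The call was lost without any 1 of the 4 libraries of these days, with adjusted p from 0.0640 to 0.206 (limma), and also with a pseudocount of 0.1 (adjusted p = 0.0531), no filter (0.0550), median ratio scaling (0.0621) and quantile normalization (0.103). Day 3 over Day 0 was -1.05 (adjusted p = 0.177, limma).

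The patterns of *Bid* and *Pmaip1*, the members with the highest and the lowest log2 difference between Day 0 and Day 3, were set beside those of all other tested genes. Over the 8 libraries, *Mau2* (Pearson r = 0.929), *Sec24d* (0.927) and *Ndfip1* (0.927) were most like *Bid*, and *Tmem53* (0.968), *Spice1* (0.963) and *Rnf169* (0.959) most like *Pmaip1*, on the log2(FPKM + 1) scale. The points share their libraries and depths, and both members rest on few fragments.

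The calls of the members are given beside the shares of all genes tested. By level, *Bbc3*, *Bcl2l11*, *Bid*, *Pmaip1* and *Bcl2* were each above at most 27.9% of these genes, and at low levels this scale understates changes. Between Day 0 and Day 1, 0 of 10 members passed, where 12.6% of all 12208 genes did, and 2 members (*Bcl2* and *Bid*) had an unadjusted p under 0.05 in limma. Between Day 1 and Day 2, 0 of 10 passed, where 3.89% of all genes did (1 of 10, *Bbc3*, as higher with the replicate block, where 3.01% of all genes were), and *Bbc3* alone had an unadjusted p under 0.05. Between Day 2 and Day 3, 0 of 10 passed, where 0.295% of all genes did, and *Mcl1* alone had an unadjusted p under 0.05. No other tool was run on these values. Between the first and the last day, 1 of 10 members (*Bak1*) passed, as lower, where 38.2% of all genes passed and 26.3% were lower. With the replicate block 2 of 10 were lower (*Bak1* and *Bax*), where 29.1% of all genes were. In the added comparison of Day 2 with Day 0, 2 of 10 (*Bcl2* and *Pmaip1*) were lower, where 21.3% of all genes were, and with the block 3 of 10 (*Bak1* as well), where 24.4% were. These shares of members are small counts beside the shares of all genes, and the comparisons with Day 0 share its libraries.

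The members also differed in sign. Their log2 differences between Day 0 and Day 3 ran from -1.05 (*Pmaip1*) to 0.61 (*Bid*), with a median of -0.04 over the 10 members, beside -0.31 over all genes tested. With the same sum the member median was 0.11, with median ratios 0.26 and after quantile normalization 0.28, while that of all genes was -0.18, -0.04 and -0.02. By role, the median was -0.06 for the 3 prosurvival genes, -0.58 for the 2 effectors and 0.47 for the 5 BH3-only genes. The Day 0 and Day 3 libraries did not overlap for 4 members, with *Bcl2* and *Bak1* lower and *Mcl1* and *Bcl2l11* higher, where 71.4% of all genes were likewise apart. The same held from Day 0 to Day 1 for 4 members, *Bcl2*, *Bak1*, *Pmaip1* and *Bid* (57.6% of all genes), and between Day 1 and Day 2 for 3, *Bcl2*, *Bak1* and *Bbc3* (53.1%). It held for 4 between Day 2 and Day 3, *Bcl2*, *Mcl1*, *Bcl2l11* and *Bad* (42.9%), and for 3 between Day 0 and Day 2, *Bcl2*, *Bak1* and *Pmaip1* (68.8%).

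**Figure D2:**
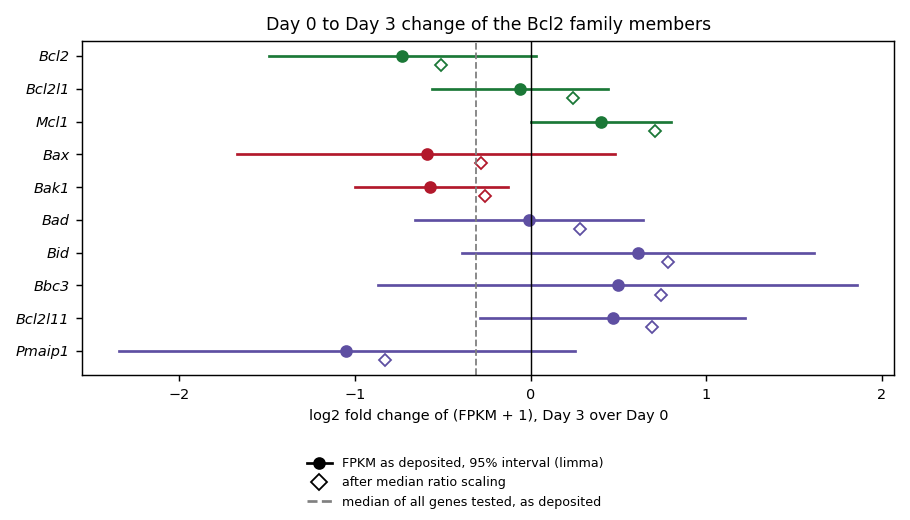
Day 3 over Day 0 log2 fold change of FPKM + 1 (horizontal axis) for each member, with the 95% interval of the limma fit on all 8 libraries (filled circles and lines) and the value after median ratio scaling (open diamonds, no interval shown). The dashed line is the median of all genes tested, -0.31. Only the interval of *Bak1* lies wholly on one side of 0, and after scaling its difference is -0.26.

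FPKM is a level per transcript length, so levels of different members in a library were set side by side. The lengths used are not given in the sources used here, and sums, shares and ratios between genes depend on them. The summed level of the prosurvival genes was 49.3 to 78.2 FPKM over the 8 libraries, that of the effectors 83.2 to 213 FPKM and that of the BH3-only genes 18.6 to 28.2 FPKM. *Mcl1* made up 63.0% to 75.9% of the prosurvival sum. *Bcl2* made up 5.65% and 4.19% of it at Day 0, 1.65% and 1.16% at Day 1, 0.924% and 0.691% at Day 2, and 1.67% and 2.22% at Day 3. Both libraries of every later day were thus below both of Day 0. *Bax* made up 62.5% to 84.0% of the effector sum, with the lower share in replicate 1 on each day.

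The ratio of *Bax* to *Bcl2* FPKM, which is often quoted as a measure of death against survival, was 19.8 and 68.9 at Day 0, 58.0 and 155 at Day 1, 133 and 203 at Day 2, and 50.2 and 54.6 at Day 3. The Day 2 libraries were above those of Day 0 and Day 3, and Day 0 and Day 1 overlapped. On Day 2 the denominator, *Bcl2*, rested on about 4 fragments in each library. With *Bcl2l1* in its place, the ratio of *Bax* was 3.57 and 12.1 on Day 0, and 2.91 and 6.95 on Day 1. It was 3.64 and 4.61 on Day 2, and 3.73 and 5.53 on Day 3, and all of these days overlapped. These ratios were not tested.

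Other genes of the pathway passed the test with larger differences. Of the 16 other Bcl2 family genes, 8 were tested and 6 were at 0 in every library. Of these 8, 4 rose and 2 fell from Day 0 to Day 3, with a median of 0.25, beside -0.31 for all genes, of which 1460 of 12208 rose. Without Day 0 replicate 1, and likewise without Day 3 replicate 1, 2 of the 8 rose, and the median without the latter was -0.02 (0.72 without Day 3 replicate 2). *Bmf*, a BH3-only gene whose protein is held on the cytoskeleton, was at 0.9849 and 0.8795 FPKM at Day 0, 5.103 and 5.063 at Day 1, 5.139 and 6.971 at Day 2, and 11.87 and 12.17 at Day 3. It rose by 2.75 on the log2 scale (SE 0.26, adjusted p = 1.87e-04, limma) and did so in 17 of 17 alternatives. Its Day 3 level was above that of *Bid*, *Bcl2l11* and *Pmaip1*, and of *Bbc3*, in both libraries of that day. *Bnip3* and *Bnip3l*, which act in mitophagy, rose by 1.33 (adjusted p = 0.00237, limma) and 0.56 (adjusted p = 0.0150).

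*Bcl2l2*, which encodes the prosurvival protein Bcl-w, rose from 12.5 ± 0.334 to 21.9 ± 3.18 FPKM (log2 0.75, SE 0.19, adjusted p = 0.0163, limma). On Day 3 its libraries, at 24.10 and 19.60 FPKM, were above those of *Bcl2l1*. *Bok*, an effector related to *Bax* and *Bak1*, was at 9.105 and 9.106 FPKM at Day 0, 1.708 and 3.822 at Day 1, 0.5733 and 0.5245 at Day 2, and 0.6402 and 0 at Day 3. It fell by 2.98 (SE 0.39, adjusted p = 7.71e-04, limma), in 16 of 16 alternatives that tested it. *Bcl2l13* fell by 0.65 (adjusted p = 0.0397, limma), and that call was lost under each of the 3 scalings.

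The next list held genes of mitochondrial release, with channels of the outer membrane among them, and caspases. Of 15 genes, 14 were tested, 0 rose and 5 fell from Day 0 to Day 3, with a median of -0.42, where 26.3% of all genes fell and their median was -0.31. Without either Day 0 library 2 fell, and without Day 3 replicate 2 3 did. *Apaf1*, the scaffold of the apoptosome, went from 9.66 ± 1.91 to 2.35 ± 0.533 FPKM (log2 -1.67, SE 0.29, adjusted p = 0.00292, limma) and was called in 17 of 17 alternatives. *Htra2*, a protease released with cytochrome c, and the initiator *Casp2* fell as well, at log2 -1.52 (adjusted p = 0.0174, limma) and -1.02 (adjusted p = 0.00827). The remaining 2 calls, *Vdac1* and *Vdac3*, channels of the outer membrane, were at -0.56 and -0.39 and were lost after median ratio scaling. The initiator *Casp9* (-0.12, adjusted p = 0.785, limma) did not pass, nor did *Cycs*, the gene of cytochrome c (-0.36, adjusted p = 0.173). The nuclease gene *Dffb* was at -1.41 (adjusted p = 0.0512, limma), and 0.0189 with the replicate block.

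Of the inhibitors of apoptosis, 4 of 9 were tested and 1 fell. This was *Birc5* (Survivin), which also serves cell division, from 123.3 and 92.46 FPKM on Day 0 to 2.829 and 1.074 on Day 3 (log2 -5.26, SE 0.37, adjusted p = 7.75e-05, limma). *Xiap*, the direct caspase inhibitor, was at -0.39 (adjusted p = 0.118, limma). The list median was -0.20, beside -0.31 for all genes, of which 26.3% fell.

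Transcription factors that act on BH3-only genes went both ways. Their median between Day 0 and Day 3 was 0.0, beside -0.31 for all genes, of which 1460 of 12208 rose and 26.3% fell. Of 9 tested, 2 rose and 2 fell from Day 0 to Day 3, and 1 rose without Day 0 replicate 2 or without either library of Day 3. *Tfeb*, which drives lysosomal genes, rose from 5.19 ± 1.76 to 38.5 ± 5.04 FPKM (log2 2.70, SE 0.24, adjusted p = 1.51e-04, limma) and *Ddit3* (Chop), a factor of the unfolded protein response, from 6.46 ± 2.51 to 20.3 ± 1.86 FPKM (log2 1.55, SE 0.40, adjusted p = 0.0171). *Myc* and *E2f1*, which drive the cell cycle, fell, at log2 -2.54 (adjusted p = 5.39e-04, limma) and -2.17 (adjusted p = 0.00198). The FoxO genes did not pass, at 0.00 (*Foxo1*), 0.28 (*Foxo3*) and -0.34 (*Foxo4*) on the log2 scale, with adjusted p from 0.341 to 1.00 (limma).

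Of 10 genes for the turnover of Mcl1 and Bim or for the binding of Bad, 1 rose and 0 fell, with a median of -0.22. Of all genes, 1460 of 12208 rose and 26.3% fell, with a median of -0.31. The 1 that rose was *Ywhaq*, a 14-3-3 gene, from 237.9 and 266.1 to 506.2 and 644.1 FPKM (log2 1.18, SE 0.16, adjusted p = 8.98e-04, limma). The ubiquitin ligase gene *Huwe1* was at -0.35 (adjusted p = 0.105, limma) and the deubiquitinase gene *Usp9x* at -0.09 (adjusted p = 0.675), both of which act on Mcl1 protein.

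**Figure D3:**
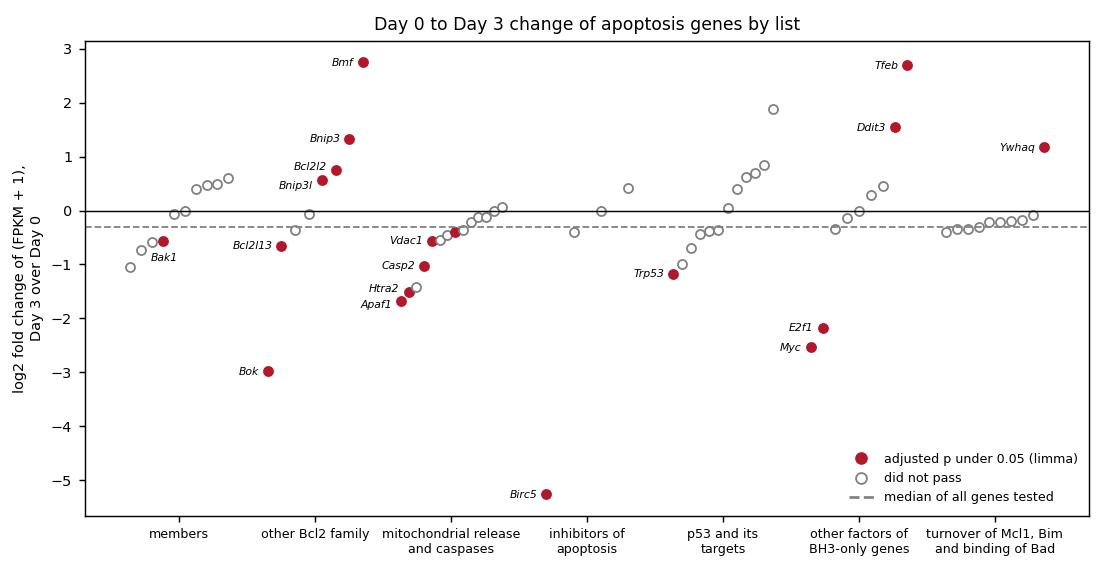
Day 3 over Day 0 log2 fold change of FPKM + 1 (vertical axis) of each tested gene, grouped by list (horizontal axis, ordered by value within a list). Filled points passed an adjusted p under 0.05 in limma and open points did not, and named genes are those the text describes. *Bmf* at 2.75 and *Bok* at -2.98 lie far outside the range of the 10 members, -1.05 to 0.61.

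*Trp53* encodes p53, which induces *Bax*, *Bbc3* and *Pmaip1* under stress. It was at 75.37 and 65.59 FPKM on Day 0 and at 31.78 and 29.45 FPKM on Day 3, and fell by 1.17 (SE 0.27, adjusted p = 0.00993, limma). It was the 1 of 12 tested genes in the list of p53 and its targets that passed between these days, where 38.2% of all genes did. The list median was -0.16 (-0.31 for all genes). This median turned with single libraries, from -0.99 without Day 0 replicate 1 and -0.76 without Day 3 replicate 2, where 0 genes passed as lower, to 0.60 without Day 0 replicate 2 and 0.55 without Day 3 replicate 1, and it was 0.15 after median ratio scaling and 0.11 after quantile normalization. With the replicate block, *Mdm2* (0.63, adjusted p = 0.0364, limma) and *Phlda3* (1.88, adjusted p = 0.00737) passed as higher, and *Sesn2* (-0.99, adjusted p = 0.0283) and *Zmat3* (-0.69, adjusted p = 0.0275) as lower.

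Replicates of the same day also differed in *Bax* and in other p53 targets. Replicate 2 was compared with replicate 1 across the days, as the replicate term of the blocked fit, after the values had been seen. In this term the 4 days stand in for repeats of each replicate number, and whether they are independent is not known. Its p-values thus measure how evenly a difference recurs over the days, and not the spread between cultures. Of the members, 1 of 10 was higher in replicate 2, where 0.68% of all genes were, and 0 were lower, where 0.369% were (3 members, *Bax*, *Bak1* and *Bbc3*, had an unadjusted p under 0.05 in limma). The 1 called was *Bax*, at 2.68, 1.71, 1.40 and 1.73 times the replicate 1 FPKM on Day 0 to Day 3 (log2 difference 0.86, SE 0.15, adjusted p = 0.0371, limma). *Bax* and *Mcl1* were above on 4 of 4 days, as were 7.63% of all genes, and *Bak1* and *Bid* were below on 4 of 4 days, as were 12.2%.

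*Bbc3* was above on 3 of 4 days (log2 difference 0.76, adjusted p = 0.420, limma), by 3.50, 2.74 and 2.28 times on Day 0, Day 2 and Day 3, with Day 1 the exception at 0.480 times. *Pmaip1* was also above on 3 of 4 days (0.56, adjusted p = 0.587, limma), and was listed at 0 in the Day 2 library of replicate 2. The *Bax* call held under the 3 scalings. It was lost with a pseudocount of 0.1 (adjusted p = 0.0640, limma) and when any 1 of the 4 days was left out, with adjusted p from 0.0810 to 0.123 and a difference of 0.67 to 0.98.

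In the list of p53 and its targets, 10 of 12 tested genes were higher in replicate 2 on 4 of 4 days, and the list median was 0.94, beside -0.05 for all genes. *Trp53* itself was lower on 4 of 4 days (-0.41, adjusted p = 0.260, limma), and *Mdm4* was higher on 3. The test was passed by 4 of the 12. *Cdkn1a*, which encodes the cell cycle inhibitor p21, was at 2.048 and 51.55 FPKM at Day 0, 1.707 and 9.416 at Day 1, 4.728 and 22.02 at Day 2, and 5.760 and 74.87 at Day 3, with replicate 1 first. Its log2 difference was 2.89 (SE 0.35, adjusted p = 0.00866, limma). *Ccng1* (1.82, adjusted p = 0.0126, limma), *Phlda3* (1.67, adjusted p = 0.0413) and *Zmat3* (0.84, adjusted p = 0.0400) were the others. Without both libraries of Day 0, and likewise without those of Day 3, 0 of the 12 passed, and without those of Day 2 1 did. The p53 half-site match was in 5 of the 10 genes of this list that had a promoter window, *Trp53*, *Mdm2*, *Cdkn1a*, *Ccng1* and *Aen*. These 10 genes had 13 windows, and 8.36% of all windows held a match.

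Astrocyte markers moved with the replicates in the same direction. All 6 were higher in replicate 2 on 4 of 4 days, 5 passed the test, and their median log2 difference was 2.82. *Gfap*, the intermediate filament of astrocytes, was at 14.70 and 153.9 FPKM on Day 0 and at 45.47 and 602.8 FPKM on Day 3, replicate 1 first. The summed level of the 6 was 260 FPKM in Day 0 replicate 2, where *Bax* stood 2.68 times above replicate 1, and 831 FPKM in Day 3 replicate 2, where *Bax* stood 1.73 times above. Of the OPC markers 1 of 5 was lower in replicate 2, and of the mature OL markers 1 of 4 was higher. *Pdgfra* was the 1 OPC marker that was lower on 4 of 4 days, and 0 were higher on 4 of 4 days. It was at 490.3 and 395.9 FPKM on Day 0 and at 78.23 and 11.2 on Day 1, replicate 1 first. On Day 2 it was at 28.82 and 5.387 FPKM, and on Day 3 at 29.22 and 6.53. The part of these cell types in the differences of *Bax* and the p53 targets was not tested.

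**Figure D4:**
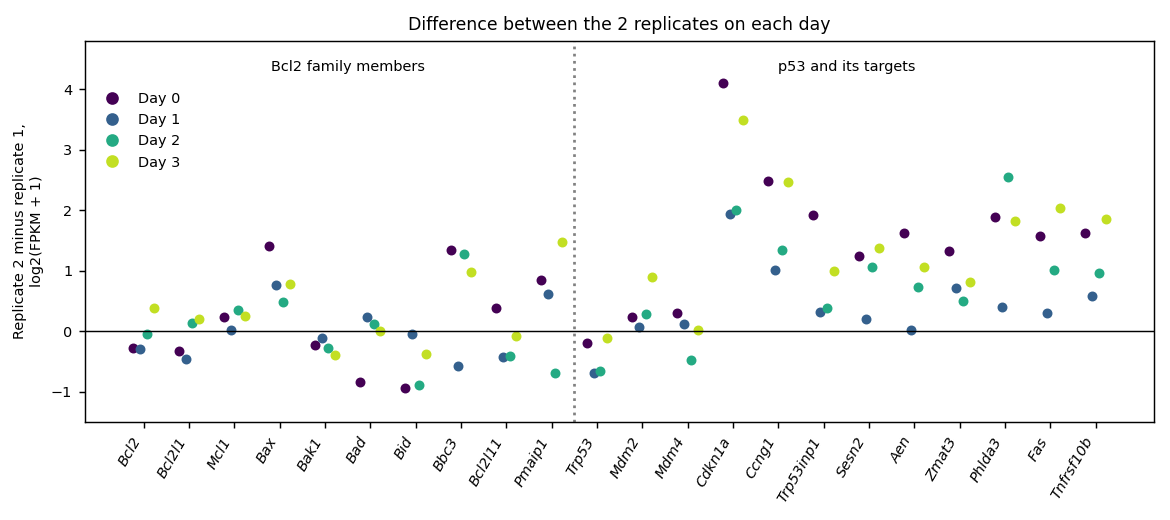
Replicate 2 minus replicate 1 in log2(FPKM + 1) (vertical axis) on each of the 4 days (colours) for the 10 members (left of the dotted line) and for p53 and its targets (right). *Bax* is above 0 on all 4 days, between 0.48 and 1.41, and *Cdkn1a* between 1.94 and 4.11.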

How the data were processed

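The authors read stranded mRNA libraries as paired ends on a MiSeq, used OmicSoft ArrayStudio and deposited FPKM, 1 column per library, replicates not pooled. The labels name the build mm10. The aligner and gene model are not given in the sources used here. The labels and the methods differ on medium and RNA kit.

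The fit was limma 3.58.1 (lmFit, eBayes with trend, R 4.3.3) of log2(FPKM + 1) on day over all 8 libraries. Genes at 1 FPKM or more in 2 libraries or more (12208) were tested, with Benjamini-Hochberg adjustment over them, and called at an adjusted p under 0.05. On this scale the change of low genes is understated. An exact permutation test of 2 against 2 libraries cannot pass (smallest p 0.333). Nothing ties each replicate to a separate isolation, so p-values measure the spread between these libraries. Replicate numbers came from the sample titles. Across genes, replicate differences on the 6 pairs of days correlated (r between 0.16 and 0.29), so the number was also fitted as a block.

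In simulated data of 12208 genes for Day 3 against Day 0, 54 of 103 genes changed by 1 on the log2 scale (52.4%) and 88 of 97 changed by 2 (90.7%) were called. Only 200 genes were changed there, with no replicate difference, while 38.2% of all genes were called in the data. Each simulated gene also had the spread typical of its level, so genes of one level did not differ in spread as they do in the data. The share found in the data may thus differ. Fragments were read from FPKM steps (70.0% to 74.1% of low values lay within 0.1 of a whole number). Alternatives were a pseudocount of 0.1, no filter, a filter of 10 FPKM in 1 library, 3 scalings, the block, only the days compared, no trend, and each library left out. Day 2 against Day 0 and replicate 2 against replicate 1 were added after seeing the data.

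All members were named. From the other lists, genes called between Day 0 and Day 3 were named, up to 4 per direction with the largest change, and others after their values were seen. For the members with the highest and lowest Day 3 over Day 0 difference, the 3 most correlated genes were named. Results that need withheld items, some listed genes among them, are not reported here. The members and lists were chosen with earlier results of these data known. Python 3.11.15 with pandas 2.3.3, numpy 2.4.6 and matplotlib 3.10.9 did the rest.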

Additional observations from a re-analysis of the deposited data

How the results depend on the processing

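With 2 libraries per day, members under 5 FPKM rest on few fragments. In the simulated data, where spread depended on level alone, 52.4% of changes of 1 on the log2 scale were called. The scaling between libraries decided most splits. Day 3 over Day 0 gave 1460 higher and 3207 lower genes as deposited, 2135 and 2047 after median ratio scaling and 2097 and 2185 after quantile normalization. Day 2 over Day 0 gave 1148 and 2597, then 1669 and 1656, then 1674 and 1653. Day 2 over Day 1 gave 264 and 211, then 371 and 103, then 296 and 131, and from Day 0 to Day 1, 615 and 923 became 843 and 833 after quantile normalization.

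With the replicate block, 803 genes in place of 475 were called from Day 1 to Day 2 and 163 in place of 36 from Day 2 to Day 3. Members called with the block numbered 1 from Day 1 to Day 2 (*Bbc3*), 2 from Day 0 to Day 3 (*Bak1* and *Bax*) and 3 from Day 0 to Day 2 (with *Bak1*), and the block changed no other call of a member between days. Of all genes, no filter gave 247 from Day 1 to Day 2 and 0 from Day 2 to Day 3, no trend 121 and 0, only the days compared 0 and 0, and a pseudocount of 0.1 gave 8 in the last step. Members called in the first step were 1 (*Bcl2*) with no filter and 1 with no trend. Between Day 0 and Day 3 they were 0 with no filter and 0 with only the days compared. With the same sum or median ratios *Mcl1* was called there in place of *Bak1*, and with no trend and after quantile normalization *Bcl2* and *Bcl2l11* were. Between Day 0 and Day 2, 1 was called with a pseudocount of 0.1, with no filter and after median ratio scaling (*Bcl2* in each), 1 with the filter of 10 FPKM (*Bak1*, since *Bcl2* and *Pmaip1* were not tested there), and 0 after quantile normalization. The causes were not tested.

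Leaving out each library in turn gave 583 to 1585 genes from Day 0 to Day 1, 11 to 445 from Day 1 to Day 2 (lowest without Day 2 replicate 2), 0 to 223 from Day 2 to Day 3 (highest without Day 3 replicate 1), 2769 to 4548 from Day 0 to Day 3 and 1900 to 3861 from Day 0 to Day 2. Members called were then 0 to 1 from Day 0 to Day 3, with *Bak1* called without Day 3 replicate 1 only, and 0 to 3 from Day 0 to Day 2. Outside the members, 9 genes lost their Day 3 over Day 0 call without 1 library: *Bcl2l2* (without Day 0 replicate 1, Day 0 replicate 2 or Day 3 replicate 1, adjusted p up to 0.0826), *Bcl2l13* (Day 0 replicate 1, Day 0 replicate 2 or Day 3 replicate 2, 0.179), *Bnip3l* (Day 0 replicate 1 or Day 3 replicate 1, 0.0910), *Htra2* (Day 0 replicate 2 or Day 3 replicate 2, 0.130), *Vdac1* (either Day 0 library, 0.0546), *Vdac3* (any library of these days, 0.122), *Casp2* (Day 0 replicate 1, 0.0644), *Trp53* (Day 0 replicate 1 or Day 3 replicate 2, 0.0729) and *Ddit3* (Day 0 replicate 2 or either Day 3 library, 0.122).

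Signs turned only in comparisons in which the member was not called in limma as deposited. In the first step, *Mcl1* (-0.01) was at 0.08 with the same sum, 0.07 with median ratios and 0.03 after quantile normalization, and *Bcl2l11* at 0.04 after quantile normalization. Between Day 1 and Day 2, median ratios gave 0.04 for *Mcl1*, 0.09 for *Bax* and 0.13 for *Bad*, which was at 0.13 after quantile normalization too. Between Day 2 and Day 3, *Bak1* was at 0.01 with the same sum and 0.02 with median ratios, and *Bid* at -0.02 after quantile normalization. Between Day 0 and Day 3 the 3 scalings gave 0.08, 0.24 and 0.21 for *Bcl2l1* and 0.13, 0.28 and 0.34 for *Bad*.

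Leaving out a library turned the sign of *Bcl2l1* (-0.18 to 0.27), *Mcl1* (-0.13 to 0.11), *Bax* (-1.20 to 0.21) and *Bad* (-0.25 to 0.59) from Day 0 to Day 1, of *Bcl2l1* (-0.20 to 0.25), *Mcl1* (-0.33 to 0.03), *Bax* (-0.49 to 0.27), *Bad* (-0.17 to 0.07) and *Bid* (-0.85 to 0.03) from Day 1 to Day 2, of *Bax* (-0.38 to 0.40), *Bak1* (-0.21 to 0.18), *Bid* (-0.42 to 0.46) and *Bbc3* (-1.18 to 0.10) from Day 2 to Day 3, and of *Bcl2l1* (-0.22 to 0.10), *Bax* (-1.30 to 0.11), *Bad* (-0.43 to 0.41) and *Bbc3* (-0.18 to 1.17) from Day 0 to Day 3.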
